A study of Mus musculus with 12 samples.

Results

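The 35 genes described here encode proteins of homologous recombination, from the nucleases that open a DNA break to the enzymes that separate the recombined strands. A gene was measured where a probe set of the array carried exactly its symbol, or an older or newer alias, and the brightest such probe set stood for the gene. By that rule 32 of the 35 were measured, of 22180 genes named on the array, and 31 were bright enough to be tested, of 15348. Rmi1, a cofactor of the BLM helicase, lay between 4.24 and 5.19 log2 units, below the limit of 5.29, and was not tested. Rbbp8, Xrcc2 and Rad54b are not analysed here. Membership rests on gene symbols, but the list was chosen with earlier results of these data known. The choice of probe set and the brightness limit use the measured values.

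The cells were LSK cells (lineage negative, SCA1+, cKIT+), the sorted bone marrow fraction that holds haematopoietic stem and early progenitor cells, from mice older than 20 months on a C57BL/6 background after at least 10 generations of backcrossing. NIPA KO mice lack NIPA, the product of Zc3hc1, a protein known for targeting cyclin B1 for ubiquitination, and wild-type (WT) mice carry it. The labels do not say which part of the gene is deleted. After the sort, cells rested 30 min in culture with IL-3, IL-6, SCF and 30% fetal calf serum. They then received 4 Gy or no irradiation, and were collected 3 h later. The 4 groups are irradiated KO, untreated KO, irradiated WT and untreated WT, with 3 arrays each and the cells of 3 mice pooled on each array.

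Homologous recombination repairs broken DNA by copying an intact sister chromatid, and so works mainly in S and G2 phase. Nucleases resect the break ends, RPA coats the exposed strand, BRCA1, PALB2 and BRCA2 prepare that strand to invade the sister, and the joined molecules are then dissolved by helicases or cut by nucleases. Quiescent blood stem cells are known to lean on end joining instead, and many recombination genes are transcribed in cells that have entered the cycle.

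Values are the authors' log2 expression values, and a difference is on that log2 scale. Differences were tested with limma in 1 fit over the 12 arrays, with p-values adjusted over all 15348 genes and a threshold of 0.05. The main contrast is the irradiation difference averaged over KO and WT, called the average irradiation difference below. The labels do not say whether arrays of the same number came from the same pool, so the p-values measure the spread between these arrays. Zc3hc1 checked the labels, at 5.61 to 5.82 on the 6 KO arrays and 7.67 to 8.47 on the 6 WT arrays. A pair of arrays stood apart for the recombination genes. Untreated WT array 1 held the lowest untreated WT value for 30 of the 31 members, against 39.1% of all genes, and untreated KO array 2 held the highest untreated KO value for 25 of the 31, against 33.5% of all genes. In bulk RNA of this kind, fewer cells of a type and less RNA per cell cannot be told apart.

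Within 3 h of 4 Gy, 19 of the 31 recombination genes fell and 1 rose in the average irradiation difference, where 9.6% of all genes fell and 6.9% rose. The median of the 31 was -0.45, against -0.0045 over all genes tested, and 25 of the 31 lay below zero, against 51.0% of all genes. At an unadjusted p under 0.05 there were 23, where 4625 of the 15348 genes (30.1%) had one. Gen1, a resolvase that cuts Holliday junctions, had the largest fall, 2.98-fold, and Fignl1, Exo1 and Rad51ap1 followed with falls of 2.00-fold, 1.97-fold and 1.95-fold. Rad52 was the member that rose. Of the 20 calls, 16 were kept when each of the 12 arrays was left out in turn, and the exceptions were Mre11a, Bard1, Rad51c and Rad52. The count of calls ran from 16 to 21 over these repeats and was 18 without both arrays that stood apart. Of the 31 members, 30 lay above the brightness limit on all 12 arrays and Eme1 lay below it on 2.

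**Figure D1:**
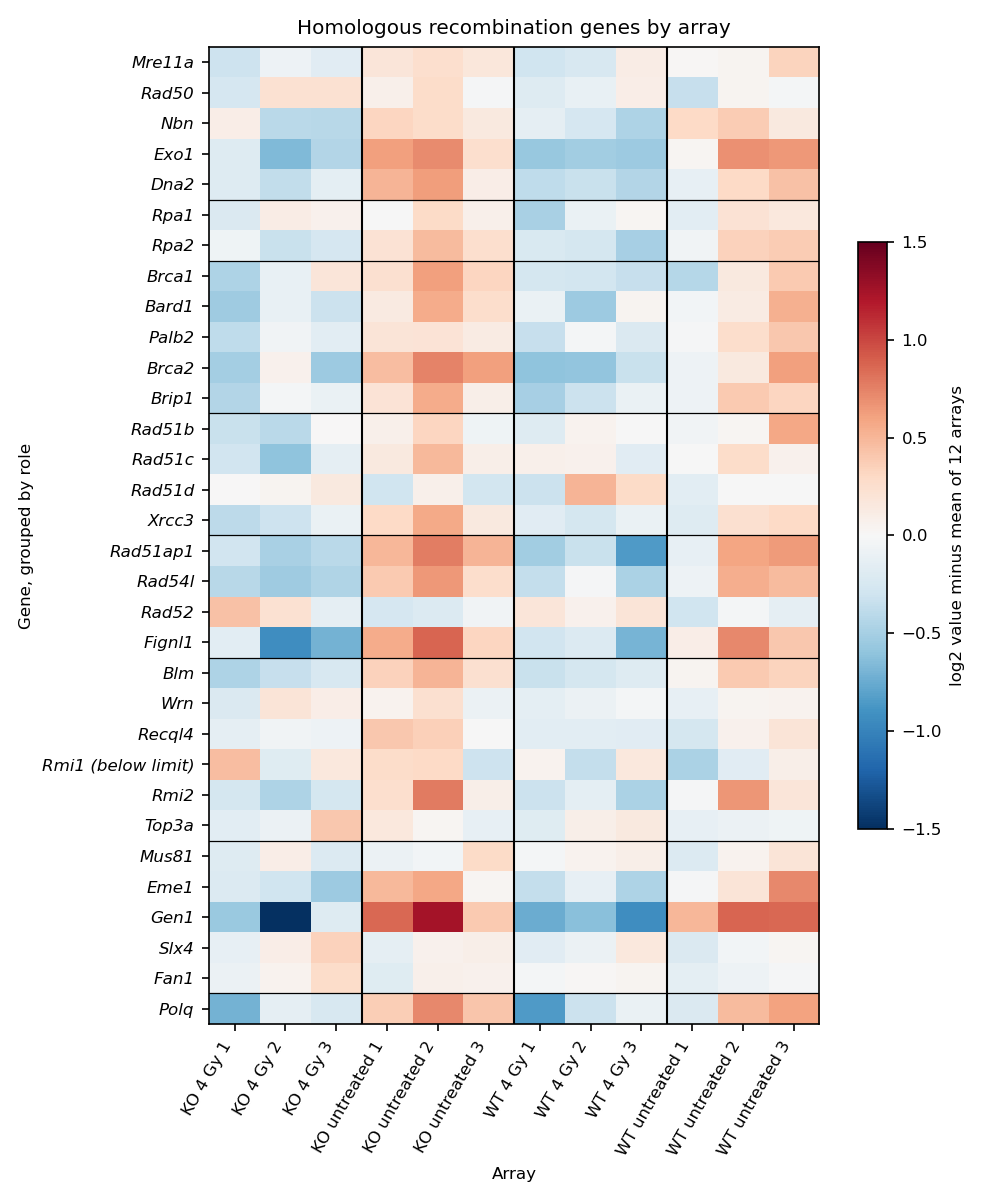
Colours give each gene's log2 value minus its mean over the 12 arrays for the 32 measured recombination genes, grouped by role (rows), on the 12 arrays (columns), with blue for low and red for high values. Gen1 spans the widest range, from 5.79 on irradiated KO array 2 to 8.71 on untreated KO array 2, and Rad50, Top3a, Slx4 and Fan1 show little contrast between irradiated and untreated arrays.

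The promoters of members that fell were read for letters of motifs that are known from genes of the cell cycle. RefSeq windows of 300 bases, from 250 before the start site to 50 after it (GRCm38.p6), were at hand for 23 of the 31 tested members and for 16 of the 19 that fell. The cell cycle homology region (CHR), searched as TTTGAA or TTCGAA, is known as a site of the DREAM and MuvB complexes, and the E2F motif was searched as TTTGGCGC, TTTGCCGC, TTTCGCGC or TTTCCCGC, all on both strands. A gene counted when any of its windows held the motif, and Rad51b, Rad51c and Rad54l had more than 1 window. A CHR was present in 5 of the 16 members that fell and had a window (31.2%). It was present in 1 of the 7 other tested members (14.3%) and in 16.4% of the 11890 tested genes with a window. An E2F motif was present in 3 of the 16 (18.8%), in 0 of the 7 and in 4.22% of tested genes. CCAAT was present in 8 of the 16 (50.0%), in 4 of the 7 (57.1%) and in 41.5% of tested genes. Over all 27025 genes of the promoter table the shares were 21.7% for the CHR, 2.60% for the E2F motif and 41.1% for CCAAT, and 0 matches overlapped each other in members. These counts are small, they describe letters and not occupied sites, and no test was made of them.

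The stretches below are those of the members that fell and hold a CHR or E2F match, printed 5′ to 3′ on the strand of the gene with the matches in capitals. In Gen1, Fignl1, Eme1 and Polq, CHR letters lie at or just after the start site, at positions 25, 21, 22 and -3 counted from the start. Exo1 and Rad51ap1 also had large falls, but Exo1 had no window and the window of Rad51ap1 held no CHR. Rad51b, which did not pass the test, has TTTGAA at position 8 in 1 of its windows. Polq has TTTGAA once more, on the reverse strand at -242, outside the stretch printed. Eme1 shows TTCAAA, the reverse complement of TTTGAA. Rad51c and Brca2 show GCGGGAAA, the reverse complement of TTTCCCGC, at positions -5 and -168, and Bard1 holds both motifs, at -242 and -209. The regions are chr12:11265778-11265877 (minus strand) for Gen1, chr11:11808933-11809032 (minus) for Fignl1, chr11:94653714-94653813 (minus) for Eme1 and chr16:37011716-37011815 (plus) for Polq. They are chr11:87404925-87405024 (minus) for Rad51c, which also has another window with TTTCGCGC, chr5:150522421-150522520 (plus) for Brca2 and chr1:71103123-71103222 (minus) for Bard1.
Gen1: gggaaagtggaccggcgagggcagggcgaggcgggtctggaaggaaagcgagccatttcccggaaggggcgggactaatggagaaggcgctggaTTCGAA
Fignl1: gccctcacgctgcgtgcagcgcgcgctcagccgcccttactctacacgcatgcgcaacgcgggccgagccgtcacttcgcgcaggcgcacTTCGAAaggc
Eme1: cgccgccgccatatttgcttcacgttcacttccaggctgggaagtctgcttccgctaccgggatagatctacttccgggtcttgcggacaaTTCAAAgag
Polq: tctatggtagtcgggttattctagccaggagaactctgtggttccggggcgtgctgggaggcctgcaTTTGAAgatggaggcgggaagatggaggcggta
Rad51c: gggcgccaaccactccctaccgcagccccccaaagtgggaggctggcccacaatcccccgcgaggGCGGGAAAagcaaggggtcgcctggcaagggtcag
Brca2: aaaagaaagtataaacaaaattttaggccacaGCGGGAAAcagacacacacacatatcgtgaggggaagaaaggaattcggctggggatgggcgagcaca
Bard1: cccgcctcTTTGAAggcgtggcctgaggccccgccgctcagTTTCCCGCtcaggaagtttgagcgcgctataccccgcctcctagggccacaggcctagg

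Counts by role are given for the average irradiation difference, in which 9.6% of all genes fell and 6.9% rose. Among the genes of end resection, 4 of the 5 tested fell, with a median of -0.52 for the 5. Exo1, an exonuclease that resects break ends over long distances, read 7.42, 6.96 and 7.18 on irradiated KO arrays and 8.24, 8.32 and 7.87 on untreated KO arrays, and 7.05, 7.09 and 7.07 on irradiated WT arrays and 7.65, 8.31 and 8.27 on untreated WT arrays. Every irradiated array lay below every untreated array in both genotypes, and the irradiated WT arrays were close together. The average irradiation difference of Exo1 was -0.98 (SE 0.13, limma adjusted p = 0.00035). Dna2, a nuclease and helicase that works beside EXO1, read 6.51, 6.35 and 6.56 on irradiated KO arrays and 7.22, 7.34 and 6.81 on untreated KO arrays, and 6.33, 6.37 and 6.27 on irradiated WT arrays and 6.59, 7.005 and 7.15 on untreated WT arrays. Its groups did not overlap in either genotype, and it fell by 0.62 (SE 0.11, adjusted p = 0.003).

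The MRE11, RAD50 and NBN proteins form the MRN complex, which senses the break and begins its resection. Nbn read 8.50, 8.01 and 7.997 on irradiated KO arrays and 8.73, 8.68 and 8.55 on untreated KO arrays, and 8.27, 8.16 and 7.95 on irradiated WT arrays and 8.71, 8.79 and 8.55 on untreated WT arrays. Irradiated KO array 1 was the highest irradiated value and still lay below all untreated arrays. Nbn fell by 0.52 (SE 0.10, limma adjusted p = 0.0049). Mre11a read 7.97, 8.20 and 8.10 on irradiated KO arrays and 8.45, 8.52 and 8.44 on untreated KO arrays, and 7.97, 8.03 and 8.38 on irradiated WT arrays and 8.28, 8.31 and 8.61 on untreated WT arrays. The KO groups did not overlap, while irradiated WT array 3 lay within the untreated WT arrays. Mre11a fell by 0.33 (SE 0.09, adjusted p = 0.031). That call was lost without irradiated KO array 3 (0.056), untreated KO arrays 1 (0.0579), 2 (0.0713) or 3 (0.0508), irradiated WT arrays 1 (0.0666) or 2 (0.0628) or untreated WT array 3 (0.0773), and after cyclic loess (0.0885). Rad50 read 7.91, 8.39 and 8.40 on irradiated KO arrays and 8.24, 8.44 and 8.15 on untreated KO arrays, and 7.97, 8.05 and 8.27 on irradiated WT arrays and 7.82, 8.21 and 8.13 on untreated WT arrays. The groups overlapped in both genotypes, and the average difference of Rad50 had a 95% confidence interval of -0.24 to 0.24.

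RPA coats the resected strand. Rpa2, its middle subunit, read 8.60, 8.33 and 8.40 on irradiated KO arrays and 8.88, 9.13 and 8.92 on untreated KO arrays, and 8.44, 8.39 and 8.17 on irradiated WT arrays and 8.60, 9.01 and 9.05 on untreated WT arrays. The groups did not overlap, with untreated WT array 1 closest to the irradiated ones. Rpa2 fell by 0.54 (SE 0.10, limma adjusted p = 0.003). Rpa1, the large subunit, did not pass the test, at -0.19 (95% confidence interval -0.44 to 0.05, adjusted p = 0.28). Its groups overlapped in both genotypes, and its other probe set, dimmer at a mean of 5.16, had -0.10.

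BRCA1, BARD1, PALB2, BRCA2 and BRIP1 work on the resected strand before it invades the sister, and 4 of these 5 genes fell, with a median of -0.49 for the 5. Brca2, a breast cancer susceptibility gene at the centre of this step, read 7.42, 7.99 and 7.39 on irradiated KO arrays and 8.39, 8.68 and 8.55 on untreated KO arrays, and 7.33, 7.34 and 7.60 on irradiated WT arrays and 7.86, 8.08 and 8.54 on untreated WT arrays. No irradiated array reached the untreated arrays of its genotype, and irradiated KO array 2 was the highest irradiated one. Brca2 fell by 0.84 (SE 0.14, limma adjusted p = 0.0015), a 1.79-fold fall. Palb2, the bridge between BRCA1 and BRCA2, read 6.58, 6.91 and 6.80 on irradiated KO arrays and 7.15, 7.17 and 7.08 on untreated KO arrays, and 6.61, 6.93 and 6.74 on irradiated WT arrays and 6.94, 7.22 and 7.36 on untreated WT arrays. Its groups did not overlap, although irradiated WT array 2 and untreated WT array 1 were nearly level. Palb2 fell by 0.39 (SE 0.10, adjusted p = 0.015).

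Brip1, the helicase also called FANCJ, read 6.95, 7.36 and 7.29 on irradiated KO arrays and 7.59, 7.95 and 7.47 on untreated KO arrays, and 6.89, 7.07 and 7.29 on irradiated WT arrays and 7.31, 7.78 and 7.71 on untreated WT arrays. Irradiated and untreated arrays were apart in both genotypes, by a narrow margin in WT. Brip1 fell by 0.49 (SE 0.12, limma adjusted p = 0.016). Bard1, the partner of BRCA1 in its ubiquitin ligase, read 5.45, 5.87 and 5.66 on irradiated KO arrays and 6.11, 6.54 and 6.24 on untreated KO arrays, and 5.88, 5.43 and 6.02 on irradiated WT arrays and 5.94, 6.10 and 6.51 on untreated WT arrays. The KO groups were apart and the WT groups overlapped at 1 array. Bard1 fell by 0.52 (SE 0.14, adjusted p = 0.02), and its call was lost without untreated KO array 2 (0.0545) or untreated WT array 3 (0.0522). Brca1 read 6.16, 6.51 and 6.80 on irradiated KO arrays and 6.86, 7.24 and 6.95 on untreated KO arrays, and 6.35, 6.34 and 6.28 on irradiated WT arrays and 6.19, 6.76 and 7.02 on untreated WT arrays. The KO groups were apart, and untreated WT array 1 held the lowest of the 6 WT values. Brca1 did not pass the test, at -0.43 (SE 0.14, adjusted p = 0.065). It passed without irradiated KO array 3 (adjusted p = 0.041), without untreated WT array 1 (0.0118) and with the replicate block within genotype (0.0419).

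Rad51b, Rad51c, Rad51d and Xrcc3 encode related ATPases that assist strand invasion, and 2 of the 4 fell. Xrcc3 read 7.05, 7.13 and 7.34 on irradiated KO arrays and 7.74, 8.01 and 7.59 on untreated KO arrays, and 7.27, 7.18 and 7.34 on irradiated WT arrays and 7.24, 7.68 and 7.74 on untreated WT arrays. The KO groups were apart, and in WT untreated array 1 lay among the irradiated arrays. Xrcc3 fell by 0.45 (SE 0.11, limma adjusted p = 0.013). Rad51c read 6.08, 5.76 and 6.24 on irradiated KO arrays and 6.52, 6.86 and 6.46 on untreated KO arrays, and 6.45, 6.44 and 6.20 on irradiated WT arrays and 6.36, 6.65 and 6.44 on untreated WT arrays. The KO groups did not overlap and the WT groups did. Rad51c fell by 0.35 (SE 0.11, adjusted p = 0.043). This call was lost without irradiated KO array 2 (0.0995), untreated KO arrays 1 (0.06) or 2 (0.104), irradiated WT arrays 1 (0.052), 2 (0.0547) or 3 (0.101) or untreated WT arrays 2 (0.106) or 3 (0.0723), after cyclic loess (0.0502), without a brightness limit (0.0514) and with the replicate block within genotype (0.0604). Rad51b (-0.30) and Rad51d (0.22) did not pass the test, and Rad51d passed it without irradiated WT array 1 (0.0312).

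Of 4 other tested genes of strand exchange, 3 fell and 1 rose. Fignl1, an ATPase that acts in strand exchange, read 6.73, 5.96 and 6.18 on irradiated KO arrays and 7.45, 7.76 and 7.22 on untreated KO arrays, and 6.60, 6.69 and 6.19 on irradiated WT arrays and 6.99, 7.61 and 7.30 on untreated WT arrays. All irradiated arrays lay below the untreated arrays. Fignl1 fell by 0.997 (SE 0.16, limma adjusted p = 0.0012). Rad51ap1, which stimulates the pairing of strands, read 6.73, 6.53 and 6.62 on irradiated KO arrays and 7.51, 7.79 and 7.53 on untreated KO arrays, and 6.49, 6.69 and 6.16 on irradiated WT arrays and 6.90, 7.61 and 7.66 on untreated WT arrays. The groups did not overlap, with untreated WT array 1 lowest of the untreated. Rad51ap1 fell by 0.96 (SE 0.14, adjusted p = 0.0006).

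Rad54l, a motor protein that promotes strand exchange, read 6.11, 6.00 and 6.08 on irradiated KO arrays and 6.92, 7.18 and 6.79 on untreated KO arrays, and 6.17, 6.51 and 6.05 on irradiated WT arrays and 6.45, 7.07 and 6.998 on untreated WT arrays. The KO groups lay far apart, and in WT irradiated array 2 passed untreated array 1. Rad54l fell by 0.75 (SE 0.12, limma adjusted p = 0.0015). Rad52, which anneals complementary strands, read 8.74, 8.53 and 8.16 on irradiated KO arrays and 8.05, 8.09 and 8.24 on untreated KO arrays, and 8.48, 8.36 and 8.49 on irradiated WT arrays and 7.99, 8.27 and 8.16 on untreated WT arrays. The WT groups were apart and the KO groups overlapped through irradiated array 3. Rad52 rose by 0.33 (SE 0.10, adjusted p = 0.043), a call that rests on nearly every array. It was lost without irradiated KO arrays 1 (0.0654) or 2 (0.0904), untreated KO arrays 1 (0.0956) or 2 (0.0911), irradiated WT arrays 1 (0.0757), 2 (0.0523) or 3 (0.0884) or untreated WT arrays 1 (0.0895), 2 (0.0512) or 3 (0.0788), after subtraction of array medians (0.0609), without a brightness limit (0.0516) and with the replicate block within genotype (0.0613).

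**Figure D2:**
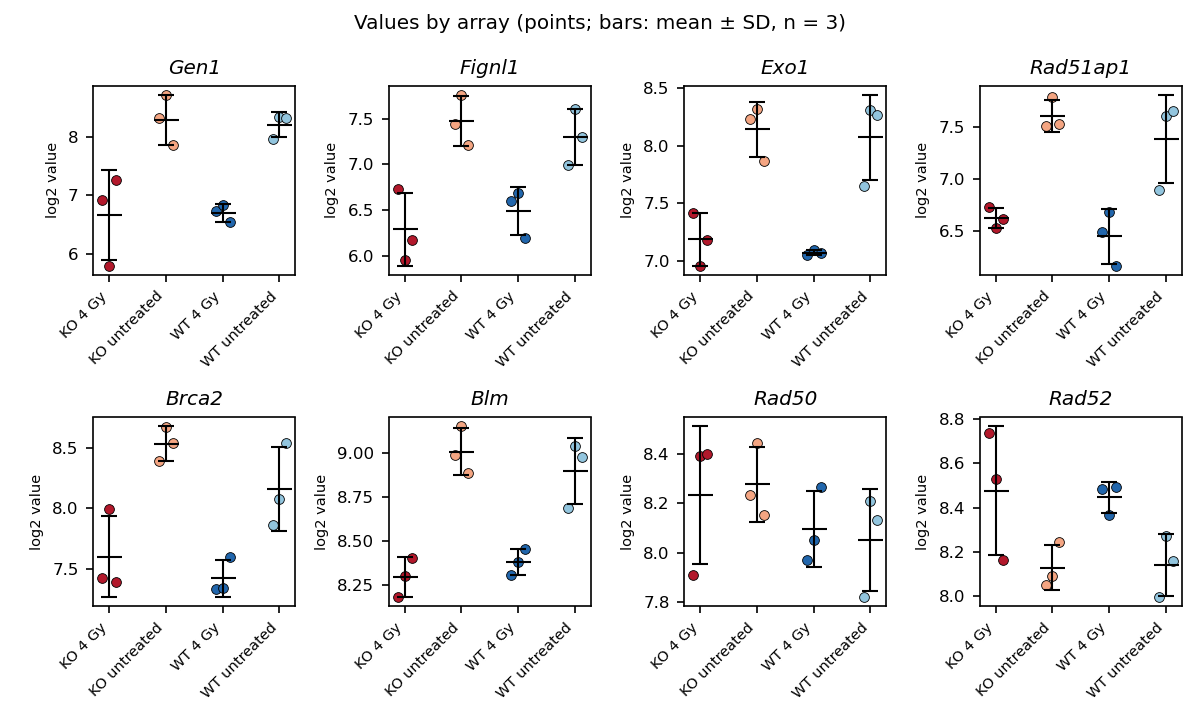
Points are the log2 values of the 3 arrays of each group for 8 recombination genes, and bars give the mean and SD (n = 3). In Gen1, Fignl1, Exo1, Rad51ap1, Brca2 and Blm the irradiated arrays lie below the untreated arrays of the same genotype, in Rad50 the groups overlap, and in Rad52 the irradiated means of 8.48 in KO and 8.45 in WT lie above the untreated means of 8.13 and 8.14.

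Among RecQ helicases and the genes of dissolution, 2 of the 5 tested fell. Blm, the helicase that dissolves joined molecules, read 8.18, 8.30 and 8.41 on irradiated KO arrays and 8.99, 9.15 and 8.88 on untreated KO arrays, and 8.31, 8.38 and 8.45 on irradiated WT arrays and 8.69, 9.04 and 8.97 on untreated WT arrays. All 6 irradiated arrays lay below all 6 untreated arrays. Blm fell by 0.61 (SE 0.09, limma adjusted p = 0.00051). Rmi2, a cofactor of BLM, read 6.81, 6.61 and 6.81 on irradiated KO arrays and 7.32, 7.85 and 7.17 on untreated KO arrays, and 6.74, 6.92 and 6.60 on irradiated WT arrays and 7.05, 7.73 and 7.25 on untreated WT arrays. The groups did not overlap in either genotype. Rmi2 fell by 0.65 (SE 0.14, adjusted p = 0.0075). Top3a, the topoisomerase that works with BLM, had 0.07 (95% confidence interval -0.16 to 0.30), and the helicases Wrn and Recql4 had -0.06 and -0.25, none past the test. Recql4 passed it without untreated KO array 3 (0.0406) or untreated WT array 1 (0.0342).

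Of the 5 nucleases that cut joined molecules or crosslinks, Gen1 and Eme1 fell and the other 3 did not pass the test. Gen1 read 6.91, 5.79 and 7.27 on irradiated KO arrays and 8.33, 8.71 and 7.86 on untreated KO arrays, and 6.72, 6.84 and 6.53 on irradiated WT arrays and 7.96, 8.34 and 8.32 on untreated WT arrays. The groups were apart in both genotypes, and the irradiated KO arrays were the most scattered (SD 0.77, against 0.15 in irradiated WT arrays). Gen1 fell by 1.58 (SE 0.22, limma adjusted p = 0.00053). Eme1, the partner of the MUS81 nuclease, read 5.54, 5.44 and 5.19 on irradiated KO arrays and 6.22, 6.33 and 5.78 on untreated KO arrays, and 5.38, 5.62 and 5.28 on irradiated WT arrays and 5.73, 5.93 and 6.46 on untreated WT arrays. It was a dim gene whose groups did not overlap. Eme1 fell by 0.67 (SE 0.14, adjusted p = 0.0064). Mus81 had -0.06, Slx4, the scaffold of these nucleases, 0.07, and the nuclease Fan1 0.09. Their 95% confidence intervals lay between -0.28 and 0.29.

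Polq encodes polymerase theta, which joins resected ends through short homologies and so competes with recombination. Polq read 5.78, 6.36 and 6.26 on irradiated KO arrays and 6.86, 7.21 and 6.91 on untreated KO arrays, and 5.64, 6.17 and 6.39 on irradiated WT arrays and 6.28, 6.97 and 7.09 on untreated WT arrays. The KO groups were apart, and in WT irradiated array 3 passed untreated array 1. Polq fell by 0.79 (SE 0.17, limma adjusted p = 0.0082).

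In KO cells alone, 11 of the 31 members fell after irradiation and 0 rose, where 3.2% of all genes fell and 2.74% rose. They were Exo1, Dna2, Rpa2, Brca2, Rad51c, Xrcc3, Rad51ap1, Rad54l, Fignl1, Blm and Gen1, with a median over the 31 of -0.52, against -0.02 over all genes. The largest differences in KO cells were those of Gen1, -1.64 (SE 0.32, limma adjusted p = 0.0094), and Fignl1, -1.19 (SE 0.23, adjusted p = 0.0089). In 21 of the 31 the irradiated KO arrays all lay below the untreated ones, against 13.2% of all genes, and in 0 all above them, against 10.2%. Of the 31, 22 had an unadjusted p under 0.05, where 3055 of all genes (19.9%) had one. With 3 irradiated and 3 untreated arrays, exact permutation p-values have a floor of 0.1, which is why limma was used for each gene. Without untreated KO array 2, the array on which most members stood highest, the call of Blm was the 1 that was kept, and the other 10 had adjusted p between 0.0504 (Fignl1) and 0.18 (Rpa2). The count was 7 without irradiated KO array 2, which lost Dna2 (0.126), Rpa2 (0.157), Rad51c (0.163) and Xrcc3 (0.113), and 7 without untreated KO array 1, which lost the same genes (0.12, 0.086, 0.0855 and 0.0893). Without irradiated KO array 3, Dna2 (0.0696), Rpa2 (0.133) and Brca2 (0.0609) were lost, without irradiated KO array 1 Xrcc3 (0.0639), and without untreated KO array 3 Rpa2 (0.0886) and Rad51c (0.0564). Leaving out WT arrays, which share the estimate of spread, took Rpa2 (irradiated WT arrays 1 and 2, untreated WT arrays 2 and 3) and Rad51c (the same and untreated WT array 1) to between 0.0502 and 0.0619.

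In WT cells, 6 members fell and 0 rose, where 2.7% of all genes fell and 2.13% rose (4.83% in either direction). These were Exo1, Rpa2, Brca2, Rad51ap1, Blm and Gen1, all of which also fell in KO cells, and the median over the 31 was -0.41, against 0.0039 over all genes. Gen1 had -1.51 (SE 0.32, limma adjusted p = 0.017), Exo1 -1.01 (SE 0.18, adjusted p = 0.0082) and Rad51ap1 -0.94 (SE 0.20, adjusted p = 0.017) in WT cells. The irradiated WT arrays all lay below the untreated ones in 13 members, against 13.3% of all genes, and all above them in 1, Rad52, against 11.4%. An unadjusted p under 0.05 was found for 15 members and for 3040 of all genes (19.8%). Same-numbered WT arrays deviated together, and in a fit that blocks on array number inside each genotype (the replicate block) 10 members fell in WT cells. That fit added Nbn (0.0246), Brip1 (0.0409), Rad54l (0.0428), Fignl1 (0.0459) and Polq (0.00793) and lost Rpa2 (0.0609).

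The WT calls rested on few arrays, and that of Exo1 was the 1 kept when each array was left out. The count was 1 without irradiated WT array 3, untreated WT array 2 or untreated WT array 3, 3 without irradiated WT array 1 or 2, and 11 without untreated WT array 1. Gen1 had adjusted p of 0.073 with irradiated WT array 3 left out, 0.0775 with untreated WT array 2 and 0.0759 with untreated WT array 3 left out. For Rad51ap1 the same 3 omissions gave 0.079, 0.0853 and 0.0848. For Blm, omission of irradiated WT array 1, 2 or 3 gave 0.0817, 0.0712 or 0.0692, and that of untreated WT array 2 or 3 gave 0.137 or 0.124. For Brca2 the values were 0.112, 0.117 or 0.0837 with irradiated WT array 1, 2 or 3 omitted and 0.125 or 0.193 with untreated WT array 2 or 3 omitted. With KO arrays omitted they were 0.0639, 0.0647 or 0.0688 (untreated 1, 2 or 3) and 0.0504 (irradiated 3). For Rpa2 they were 0.0587, 0.0755 or 0.165 with irradiated WT array 1, 2 or 3 omitted and 0.169 or 0.177 with untreated WT array 2 or 3 omitted. With KO arrays omitted they were 0.0591, 0.053 or 0.0601 (untreated 1, 2 or 3) and 0.0511 or 0.0537 (irradiated 2 or 3).

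**Figure D3:**
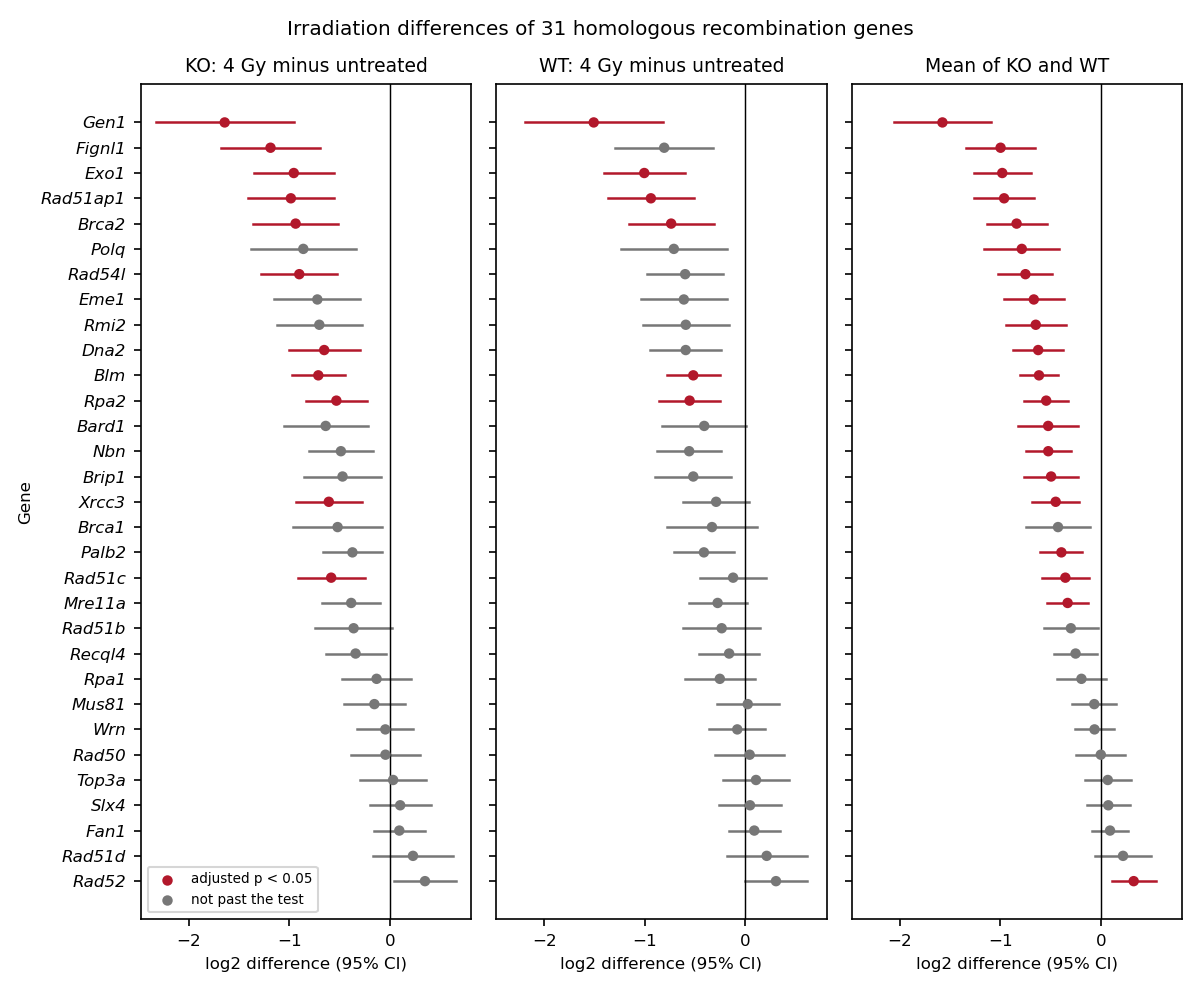
Points are log2 differences of irradiated over untreated cells with 95% confidence intervals for the 31 tested recombination genes, in KO cells, in WT cells and averaged over both, ordered by the average. Red points passed the test, 11 in KO cells, 6 in WT cells and 20 in the average, and Gen1 lies farthest to the left in all 3 panels.

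Whether the response differed without NIPA was asked through the interaction, the irradiation difference in KO minus that in WT. It called 0 of the 31 members and 0 of the 15348 genes (0%), and 0 members had an unadjusted p under 0.05, where 235 of all genes (1.53%) had one. The irradiation difference was lower in KO than in WT for 20 of the 31, against 52.3% of all genes, with a median interaction over the 31 of -0.11. That direction rested on single arrays, since without untreated WT array 1 it was lower in KO for 13 of the 31, with a median of 0.038, and without untreated KO array 2 for 16, with a median of -0.0011. The smallest p was that of Rad51c, whose irradiation difference was -0.58 in KO and -0.12 in WT, an interaction of -0.46 (95% confidence interval -0.93 to 0.0069, unadjusted p = 0.053, limma adjusted p = 1). Xrcc3 came next, with -0.61 in KO and -0.29 in WT and an interaction of -0.32 (95% confidence interval -0.78 to 0.15), which was -0.16 without untreated WT array 1 and -0.20 without untreated KO array 2. The 5 members called in KO and not in WT are therefore not shown to differ between the genotypes. Over the members the interval reached a median of 0.49 to either side of the estimate. This interval is not adjusted over all genes, so differences larger than that could also be missed with 3 arrays a group.

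KO cells were also set against WT cells at each dose, and 0 of the 31 members passed in untreated cells, in irradiated cells or in the average of both, where 0.00652% of all genes (1 of 15348, Zc3hc1) passed in each. An unadjusted p under 0.05 was found for 0, 1 and 0 members, and for 330, 471 and 635 of all genes (2.15%, 3.07% and 4.14%). In untreated cells Brca2 had the smallest p, with 0.38 in KO over WT (95% confidence interval -0.04 to 0.80, unadjusted p = 0.0748), and Recql4 came next with 0.25. Without untreated WT array 1 these were 0.23 and 0.12, while Brca2 had 0.57 without untreated WT array 3 and Recql4 0.38 without untreated KO array 3. In irradiated cells Rad51c had -0.33 (95% confidence interval -0.66 to -0.0012, unadjusted p = 0.0493) and Rad51b -0.20. Without irradiated KO array 2 these were -0.20 and -0.12, and Rad51b had -0.32 without irradiated KO array 3. In the average of both doses Brca2 had 0.28, or 0.18 without irradiated KO array 2, and Brca1 had 0.26, or 0.14 without untreated WT array 1. Genotype differences of the members spanned -0.33 to 0.38 over both doses. Recql4 read 6.58, 6.66 and 6.64 on irradiated KO arrays against 6.56, 6.55 and 6.55 on irradiated WT arrays, the 1 member whose groups did not overlap there, against 2.57% of all genes that were higher and 3.83% that were lower in this way. In untreated cells 0 members were apart, against 4.4% of all genes higher and 3.55% lower.

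The members of some protein complexes did not fall alike. For 14 pairs of subunits, the difference of their log2 values was compared between irradiated and untreated arrays with a two-sided exact permutation test within genotype, which has 400 relabellings and a smallest p of 0.005, with p-values adjusted over the 14. This comparison was chosen after the values were seen, and since probe sets differ in how steeply they respond it shows an unequal change on this scale. Blm against Top3a had a difference of -0.68, Rmi2 against Top3a -0.72 and Brca2 against Palb2 -0.45, each with an exact permutation p = 0.005, the smallest possible, and adjusted p = 0.0233. In these 3 pairs every irradiated array lay below every untreated array of its genotype (6 of 6). The smallest possible p requires this, so it is no further support. The calls were kept when each array was left out, with adjusted p up to 0.0467.

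Eme1 against Mus81 had -0.60 and Mre11a against Rad50 -0.33 (both exact permutation p = 0.01, adjusted p = 0.028), Rad51b against Rad51d -0.52 (p = 0.015, adjusted p = 0.035) and Rad51c against Rad51d -0.57 (p = 0.02, adjusted p = 0.04). With an array left out there are fewer relabellings and coarser p-values, so a lost call need not point to that array. The 4 pairs just named had adjusted p of 0.05 or more when some single arrays were left out. For Eme1 and Mus81 these were irradiated KO arrays 2 and 3 (0.05 each) and irradiated WT arrays 2 and 3 (0.056 each). For Mre11a and Rad50 they were untreated KO array 3 (0.0583) and irradiated WT arrays 2 (0.056) and 3 (0.0525), and for Rad51b and Rad51d irradiated WT arrays 2 (0.07) and 3 (0.0583). For Rad51c and Rad51d they were irradiated KO array 2 (0.05), the untreated KO arrays (0.07 each) and irradiated WT arrays 2 and 3 (0.08 each). Nbn against Rad50 had -0.52 (adjusted p = 0.07, and 0.0175 without irradiated KO array 1). Rpa2 against Rpa1 had -0.35 (adjusted p = 0.0933), with 0.0311 without irradiated KO array 1, 0.0117 without irradiated WT array 1 and 0.0233 with Rpa1 as the mean of its probe sets. The other 5 pairs did not pass, with Blm and Rmi2 apart by 0.03.

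**Figure D4:**
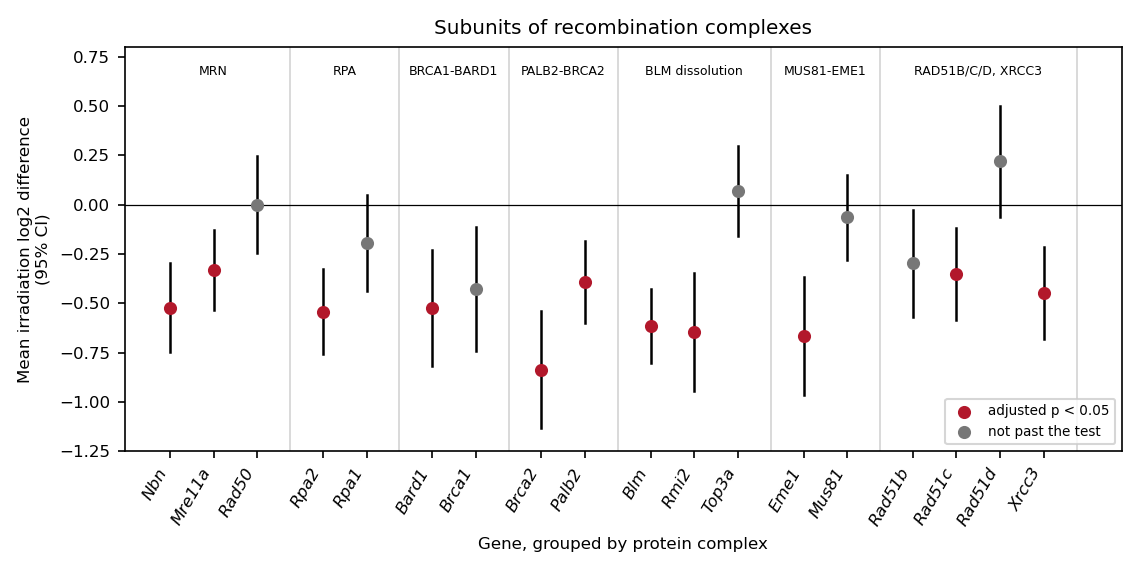
Points are average irradiation log2 differences with 95% confidence intervals for subunits of recombination complexes. Rad50 (0.00), Top3a (0.07), Mus81 (-0.06) and Rad51d (0.22) lie near or above zero while a partner of each lies lower, with Nbn at -0.52, Blm at -0.61, Eme1 at -0.67 and Rad51c at -0.35.

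A wider list of 42 other recombination genes had 34 tested, of which 14 fell and 1 rose in the average irradiation difference, with a median of -0.32. Over all genes 9.6% fell and 6.9% rose in that difference. In KO cells 5 fell and 1 rose, where 3.2% of all genes fell and 2.74% rose. In WT cells 4 fell and 1 rose, where 2.7% of all genes fell and 2.13% rose. Hrob, which brings the MCM8 and MCM9 helicases to sites of recombination, read 6.62, 6.78 and 6.41 on irradiated KO arrays and 7.58, 7.48 and 7.43 on untreated KO arrays, and 6.97, 6.60 and 6.67 on irradiated WT arrays and 7.63, 7.82 and 7.88 on untreated WT arrays. The groups were apart in both genotypes, and Hrob fell by 0.97 (SE 0.09, limma adjusted p = 3.3e-05). Nabp1, a subunit of a complex that binds single-stranded DNA, was the 1 that rose. It read 10.44, 10.73 and 10.75 on irradiated KO arrays and 9.58, 9.66 and 9.97 on untreated KO arrays, and 10.41, 10.57 and 10.54 on irradiated WT arrays and 9.77, 9.82 and 9.73 on untreated WT arrays. Its groups did not overlap either, with a difference of 0.82 (SE 0.09, adjusted p = 7.8e-05). Parpbp, an inhibitor of recombination, fell by 1.13 (adjusted p = 0.00044), Mms22l, which acts at broken replication forks, by 0.56 (0.001), the nuclease Ankle1 by 0.70 (0.0014) and Zgrf1 by 0.57 (0.007).

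Genes of the cell cycle were lower on the irradiated arrays, as the recombination genes were, and genes of the p53 response were higher there. In the average irradiation difference all 9 tested p53 targets rose, with a median of 1.63, among them Cdkn1a (1.29) and Mdm2 (1.63). All 21 genes of G2 and mitosis fell, with a median of -1.63 and Cdk1 at -2.05, and 17 of 25 genes of S phase and replication fell, with a median of -0.55. Over all genes tested 9.6% fell and 6.9% rose. Mki67, a mark of cycling cells, fell by 1.31 (limma adjusted p = 0.0014). The mean deviation of the 31 members from their 12-array means was -0.26, -0.24 and -0.14 on irradiated KO arrays and 0.23, 0.44 and 0.15 on untreated KO arrays. It was -0.29, -0.17 and -0.21 on irradiated WT arrays and -0.08, 0.26 and 0.31 on untreated WT arrays. The S phase list stood at 0.33, 0.54 and 0.08 on the untreated KO arrays and at 0.06, 0.48 and 0.32 on the untreated WT arrays, so untreated KO array 2 was high and untreated WT array 1 low there too. Irradiated KO array 3 stood highest of the irradiated arrays for the G2 and mitosis list, at -0.13, against -0.88 and -0.96 on irradiated KO arrays 1 and 2. The part of the cell cycle in the values of the recombination genes was not tested.

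**Figure D5:**
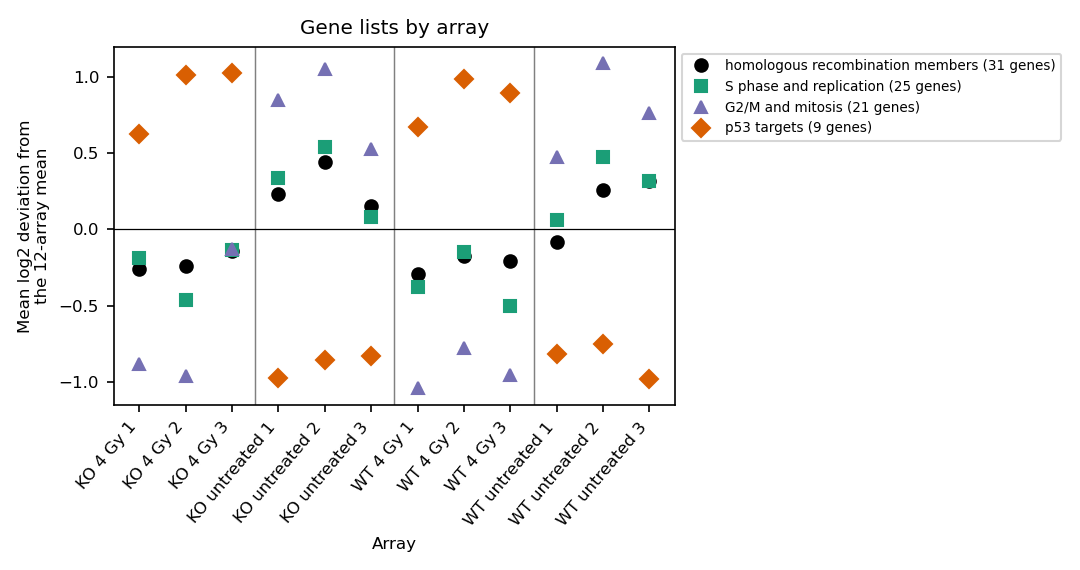
Points are the mean log2 deviation from the 12-array mean for the 31 recombination genes and for lists of S phase, G2 and mitosis and p53 target genes on each array. The recombination genes lie near the S phase genes on most arrays, between -0.29 and 0.44, while G2 and mitosis genes reach -1.04 and 1.09 and p53 targets lie above zero on the irradiated arrays.

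Markers of the sorted cells and of other cell types were read on the same arrays. The 6 tested LSK markers had a mean log2 level of 9.55 to 9.88 on irradiated KO arrays, 9.82 to 10.11 on untreated KO arrays, 9.68 to 9.78 on irradiated WT arrays and 10.00 to 10.06 on untreated WT arrays. In the average irradiation difference 9.6% of all genes fell and 6.9% rose. Of 6 tested LSK markers 2 fell, Flt3 by 1.13 and the transcription factor Meis1 by 0.58, and Kit had -0.51 without passing the test. In all 5 of the 6 lay below zero, and the 1 above zero had 0.67, also without passing the test. Of 5 tested erythroid markers 4 fell, led by Car1 at -2.70, and their mean deviation ran from -0.79 to -0.25 on irradiated KO arrays and 0.65 to 1.06 on untreated KO arrays, and from -0.69 to -0.46 on irradiated WT arrays and 0.06 to 0.54 on untreated WT arrays. Lists of granulocyte (7 tested), monocyte (6), B cell (5), T and NK cell (2), mast cell (4), megakaryocyte (4) and endothelial markers (5) had 0 members past the test. With so few genes tested, a count of 0 does not show that these markers were unchanged. Cd3e, Cd4, Cd8a, Klrb1c, Ms4a1, Ly6g, Fcer1a and Lepr lay below the brightness limit. The B cell list had a mean deviation of -0.48, -0.15 and 1.40 on irradiated KO arrays 1 to 3 and -0.19, 1.24 and -0.07 on untreated KO arrays 1 to 3, and of -0.75, -0.15 and -0.37 on irradiated WT arrays and -0.62, 0.35 and -0.21 on untreated WT arrays. It was thus highest on irradiated KO array 3 and on untreated KO array 2, the untreated KO array on which most recombination genes stood highest. The part of the erythroid and B cell markers in the values of the recombination genes was not tested.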

How the data were processed

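Log2 values for each probe set were deposited by the authors, who made them with RMA in oligo per the submitters' processing notes. RMA corrects background, normalizes by quantiles and summarises probes. No versions, genome build or annotation release appear (not given in the sources used here). Array medians were 5.74 to 5.85. Arrays correlated at 0.960 to 0.986 over tested genes within groups and at 0.940 to 0.988 across them, and their number limits the precision.

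Probe sets with exactly 1 symbol (23521 of 41345) were kept, and symbols were updated by gene ID. Genes were tested if they exceeded the 40th percentile of all values (5.29) on at least 3 arrays. A single limma fit (limma 3.58.1, R 4.3.3; lmFit and eBayes) over the 12 arrays gave all contrasts, with Benjamini-Hochberg adjustment over 15348 genes. It was tested on simulated data. Median standard errors were 0.147 for simple contrasts, 0.104 for averages and 0.207 for the interaction. The members, lists and tests were chosen with earlier results of these data known.

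Same-numbered irradiated and untreated arrays were checked for pairing through the correlation of their deviations from group means. It was 0.42 to 0.49 for the 3 WT pairs and -0.24 to 0.47 for the KO pairs. Across numbers it was 0.52 for irradiated KO array 2 with untreated KO array 3. It was 0.44 for irradiated KO array 3 with untreated KO array 2. Deviations from a group mean cancel within the group, so some matching of arrays tends to come out positive. Whether arrays shared a pool was not tested. The labels give no reason for the numbers.

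All 35 members could be named. Array values are given for those past the test in an irradiation contrast and for others that a comparison turns on. Of the wider list, up to 6 genes by smallest p were named, and of context lists a few set beforehand or up to 3 by smallest p. Kit and Rad50, Brca1 and Recql4 values beyond that rule were added after they were seen. Alternatives were another scaling (array medians, cyclic loess), other brightness limits, mean over probe sets, a trended and robust prior, only the arrays compared, replicate blocks and each array left out.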

Additional observations from a re-analysis of the deposited data

How the results depend on the processing

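The count of members past the test in the average irradiation difference (20) stayed between 16 and 21 when each array was left out and between 18 and 20 under the other settings tried, and the counts of 0 for the genotype contrasts and the interaction stayed at 0 throughout. The KO count of 11 became 7 with only the KO arrays in the fit and 5 without untreated KO array 2 and untreated WT array 1 together, a setting chosen after seeing the data, and ran from 1 to 13 with single arrays left out. The WT count of 6 became 3 after cyclic loess, 2 with only the WT arrays, 12 without untreated KO array 2 and untreated WT array 1, and ran from 1 to 11 with single arrays left out. Fewer arrays stand behind each value in these repeats, and for cyclic loess the cause was not tested. With the replicate number as a block the WT count was 11, and as a replicate block within genotype it was 10. The KO counts were 13 and 15. Same-numbered KO arrays did not all deviate together, and the labels do not say whether the numbers mark pools. Without untreated WT array 1, untreated KO over WT lay below zero for 17 of the 31 (median -0.014) in place of 5 (median 0.092), and the interaction for 13 (median 0.038) in place of 20 (median -0.11). Rad50, at 0.00, had -0.025 after subtraction of array medians, -0.017 without untreated KO array 2 and untreated WT array 1 and -0.059 to 0.081 with single arrays left out. Wrn had 0.012 without both irradiated arrays numbered 1 (also chosen after seeing the data), Top3a ran from -0.017 to 0.12 with single arrays left out, Blm against Rmi2 from -0.032 to 0.077 and Rad51b against Rad51c from -0.026 to 0.16. Brip1 lost its average call without both irradiated arrays numbered 1 (limma adjusted p = 0.0508). A median half-width of the interaction's interval of 0.49 limits what could be seen between genotypes.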
